A study of Homo sapiens with 18 samples.

Results

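The response to MAFG was compared between WM164 and SKMEL28, a pair of melanoma cell lines that express the melanocytic factor MITF, using 12 of the 18 RNA-seq libraries of the study. The other 6 libraries, of A375 cells, were left out of the model. Each line carried a lentiviral transgene for Myc-DDK-tagged MAFG or, as the control, for GFP, which gave 4 groups of 3 libraries: WM164 GFP, WM164 MAFG, SKMEL28 GFP and SKMEL28 MAFG. Both transgenes were driven by a constitutive EF1α promoter and the transduced cells were selected with blasticidin, so that the GFP cells had also been infected and selected, and no uninfected cells are among these libraries. The sources do not say whether the 3 libraries of a group came from separate cultures or transductions, so the p-values measure the spread between these libraries, which may be technical. The genes were not chosen by function: all 17338 genes with enough counts entered 1 model with the 4 groups, and the response difference was the log2 fold change of MAFG over GFP in WM164 minus the same quantity in SKMEL28.

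MAFG is a small MAF protein, a leucine zipper factor that binds DNA but lacks a transactivation domain of its own, so that its effect on a gene is known to depend on its partner, such as NRF2 or a BACH repressor. MITF is the factor that sustains the pigment programme of melanocytes, including the enzymes of melanin synthesis and the proteins of the melanosome. Melanoma lines are known to lie at different points between this pigmented state and states with neural crest or mesenchymal features, and lines that share MITF can still differ in the genes they keep active. The comparison therefore asks which genes moved the other way, or moved in 1 line only, when the same factor was raised in both.

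The 12 libraries held 20122172 to 34848421 counts, with a median of 30158410, and the shallowest was SKMEL28 GFP replicate 2. The TMM scaling factors ranged from 0.94 to 1.09, and those of the SKMEL28 GFP libraries (1.02 to 1.09) all lay above those of the SKMEL28 MAFG libraries (0.94 to 0.99). All 8 melanocytic markers checked had more than 3 counts in at least 1 library, and their summed level was 4317 to 4648 CPM (counts scaled to library size with TMM) in WM164 GFP, 2331 to 2474 in WM164 MAFG, 4374 to 4655 in SKMEL28 GFP and 3715 to 3923 in SKMEL28 MAFG. TYRP1, a melanin enzyme of that set, was close to 0 in WM164 with group means of 0.0741 and 0.0235 CPM, against 54.3 and 69.0 CPM in SKMEL28. The 11 markers of blood, endothelial, epithelial and keratinocyte cells summed to 0.88 to 2.35 CPM in any library, and 3 of them were at 0 in all 12. Of 17 genes with at most 3 counts in every WM164 GFP library and at least 20 CPM in every SKMEL28 GFP library, 14 remained at most 3 counts in the WM164 MAFG libraries, and of the 10 such genes of the reverse kind 4 did so in the SKMEL28 MAFG libraries. Their median levels there were 0.0125% and 0.114% of the other line's.

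MAFG itself, on chromosome 17 (chr17:81918270-81927735, GRCh38), was raised in both lines. By gene counts, MAFG read 24.4, 27.5 and 21.9 CPM in the WM164 GFP libraries and 53.4, 52.8 and 45.5 CPM in the WM164 MAFG libraries, against 24.9, 24.1 and 19.01 CPM in the SKMEL28 GFP and 37.2, 33.9 and 35.5 CPM in the SKMEL28 MAFG libraries. The libraries of each line did not overlap. The log2 fold change was 1.04 ± 0.10 (SE, n = 3 libraries a group) in WM164 and 0.65 ± 0.10 in SKMEL28, and the difference of 0.38 ± 0.14 had an adjusted p of 0.056 (edgeR quasi-likelihood test, Benjamini-Hochberg over all genes tested). On the deposited TPM scale the rise was larger, from a group mean of 2.89 to 24.5 in WM164 and from 3.96 to 16.97 in SKMEL28. SIRT7 shares the strand of MAFG and overlaps it, and the part of read assignment in the gap between both scales was not tested. MITF fell in both lines, by 0.65 on the log2 scale in WM164 and by 0.18 in SKMEL28, and the response difference of -0.47 ± 0.07 had an adjusted p of 3.9e-05 without passing the fold limit used here.

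Of the 17338 genes tested, 1221 (7.04%) had a called response difference, that is, a difference above 1 in size on the log2 scale with its adjusted p at or under 0.05. The response was more positive in WM164 for 828 of them (4.78% of the genes tested) and more negative for 393 (2.27%). Within the lines, MAFG against GFP gave 1108 called genes in WM164 (6.39%; 775 higher and 333 lower) and 893 in SKMEL28 (5.15%; 335 higher and 558 lower). In the plot of both responses, genes that respond alike lie along the dotted diagonal and the called ones lie away from it.

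Among the 1221 genes, 282 passed the test in both lines with opposite signs: 193 rose in WM164 and fell in SKMEL28, and 89 fell in WM164 and rose in SKMEL28. A further 639 passed with a change above 2-fold in 1 line and missed the test in the other: 253 rose and 97 fell in WM164 only, and 83 rose and 206 fell in SKMEL28 only. Another 97 moved in the same direction by unequal amounts, and 203 met none of these definitions. A gene that missed the test in a line was not thereby shown to be unmoved there. The 95% interval of the other line's change lay within 2-fold for 104 of the 253 genes that rose in WM164 only, 62 of the 97 that fell, and for 49 of 83 and 108 of 206 in SKMEL28. Of the 282 opposite genes, 58 changed by more than 2-fold in both lines (50 and 8).

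**Figure D1:**
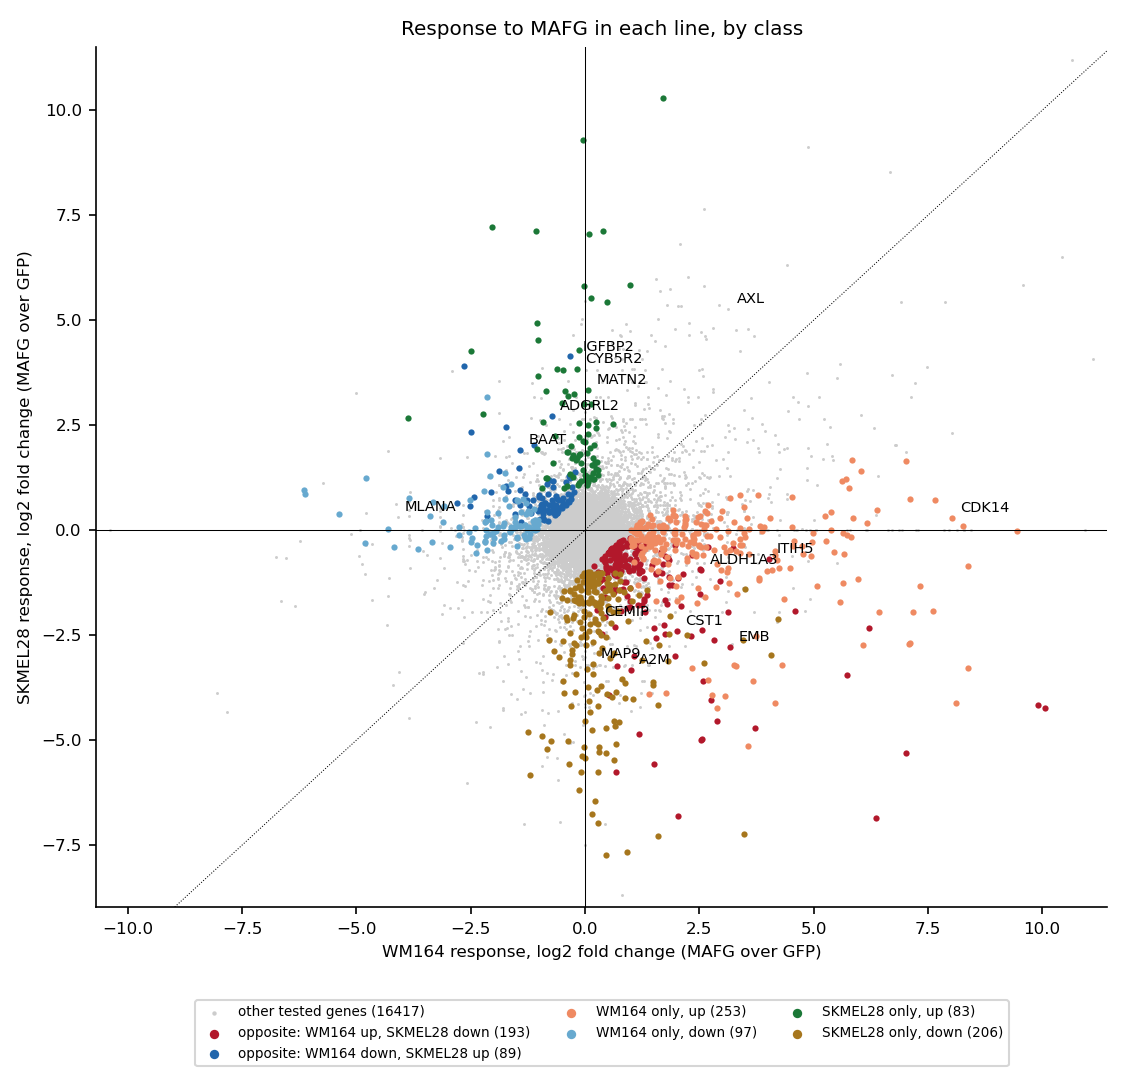
Log2 fold change of MAFG over GFP in WM164 (horizontal axis) and SKMEL28 (vertical axis) for each of the 17338 genes tested, with 6 classes coloured and the dotted diagonal marking equal responses. The 193 genes that rose in WM164 and fell in SKMEL28 fill the lower right corner, and the 253 and 206 genes called in 1 line lie along the axes.

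Of the 8 genes named for rising in WM164 and falling in SKMEL28, several encode secreted or cell-surface proteins. ALDH1A3 (chromosome 15, chr15:100877714-100916626), a retinaldehyde dehydrogenase that makes retinoic acid, had the smallest p of the class. ALDH1A3 read 149, 146 and 152 CPM in the WM164 GFP libraries and 855, 847 and 898 CPM in the WM164 MAFG libraries, against 109, 99.2 and 111 CPM in the SKMEL28 GFP and 54.3, 58.7 and 52.9 CPM in the SKMEL28 MAFG libraries. It thus rose 2.54 on the log2 scale in WM164 and fell by 0.95 in SKMEL28, and the difference was 3.48 ± 0.08 (SE; adjusted p = 2.2e-16). Among the GFP cells the lines differed by 0.48 ± 0.06, WM164 being the higher.

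A2M (chromosome 12, chr12:9067664-9116229), a broad inhibitor of extracellular proteases, moved furthest down in SKMEL28 among the named genes of the class. A2M read 784, 965 and 818 CPM in the WM164 GFP libraries and 1764, 1754 and 1627 CPM in the WM164 MAFG libraries, against 203, 189.8 and 196 CPM in the SKMEL28 GFP and 22.2, 18.4 and 17.7 CPM in the SKMEL28 MAFG libraries. The log2 fold change was 1.003 ± 0.08 in WM164 and -3.33 ± 0.09 in SKMEL28 (difference 4.34 ± 0.12, adjusted p = 6.2e-16), and A2M was already higher in WM164 among the GFP cells. CST1 (chromosome 20, chr20:23747562-23751268), a secreted cystatin that inhibits cysteine proteases, showed the mirror arrangement. CST1 read 19.9, 20.03 and 19.4 CPM in the WM164 GFP libraries and 83.7, 78.4 and 75.8 CPM in the WM164 MAFG libraries, against 79.1, 72.1 and 85.2 CPM in the SKMEL28 GFP and 14.1, 16.6 and 13.98 CPM in the SKMEL28 MAFG libraries. The WM164 MAFG libraries reached the range of SKMEL28 GFP while the SKMEL28 MAFG libraries dropped below WM164 GFP, with log2 fold changes of 2.002 ± 0.08 and -2.41 ± 0.08 (adjusted p of the difference 3.3e-16). CST1 belongs to a family of near-identical neighbours, and reads shared between the copies make its level uncertain.

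ITIH5 (chr10:7559270-7666998), a heavy chain that binds hyaluronan in the matrix, rose from 17.7, 12.9 and 12.4 to 227, 236 and 234 CPM in WM164. In SKMEL28 it went from 143, 139 and 137 to 85.5, 90.1 and 85.2 CPM, so that the order of the lines was reversed between the GFP and MAFG cells. EMB (chr5:50396192-50443248), embigin, a cell adhesion protein of the immunoglobulin family, was low in WM164 GFP at 0.749, 1.05 and 0.451 CPM and reached 6.65, 7.95 and 6.24 CPM with MAFG, whereas SKMEL28 fell from 27.0, 26.3 and 22.95 to 3.19, 3.87 and 4.003 CPM. PDLIM1, an adaptor on actin fibres, crossed over in the same way, from group means of 4.22 ± 0.438 to 40.1 ± 2.97 CPM (SD, n = 3) in WM164 and from 16.8 ± 1.302 to 12.5 ± 1.68 CPM in SKMEL28.

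ITGA4, an integrin subunit for fibronectin and VCAM1, changed by close to 2-fold in each direction. It rose from 92.9, 91.6 and 93.6 to 203, 216 and 215 CPM in WM164 and fell from 26.3, 27.5 and 26.4 to 12.2, 13.2 and 14.2 CPM in SKMEL28, widening a gap that the GFP cells already had. PTPRU, a receptor tyrosine phosphatase, rose by 0.66 on the log2 scale in WM164 and fell by 2.30 in SKMEL28. The groups of these 8 genes did not overlap in either line, which the rule for naming them required.

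Other genes of the class that were named through the gene lists included EGR1, an early response gene downstream of MAPK signalling, which read 115, 107 and 105 CPM in WM164 GFP and 185, 194 and 215 in WM164 MAFG, against 183, 211 and 203 and 112, 107 and 113 in SKMEL28. CCN2, the matricellular protein also called CTGF, went from 17.3 ± 0.707 to 56.1 ± 2.75 CPM (SD, n = 3) in WM164 and from 30.1 ± 1.25 to 17.3 ± 2.74 CPM in SKMEL28. SLC2A1, the glucose transporter GLUT1, and PFKFB4, a regulator of glycolysis, rose by 0.73 and 1.32 on the log2 scale in WM164 and fell by 0.64 and 0.24 in SKMEL28. The receptor genes PDGFRA and EPHB2 belonged here too: PDGFRA went from 3.63 to 14.2 CPM in WM164 and from 0.377 to 0.0425 CPM in SKMEL28, where its MAFG libraries held 0 to 4 counts.

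**Figure D2:**
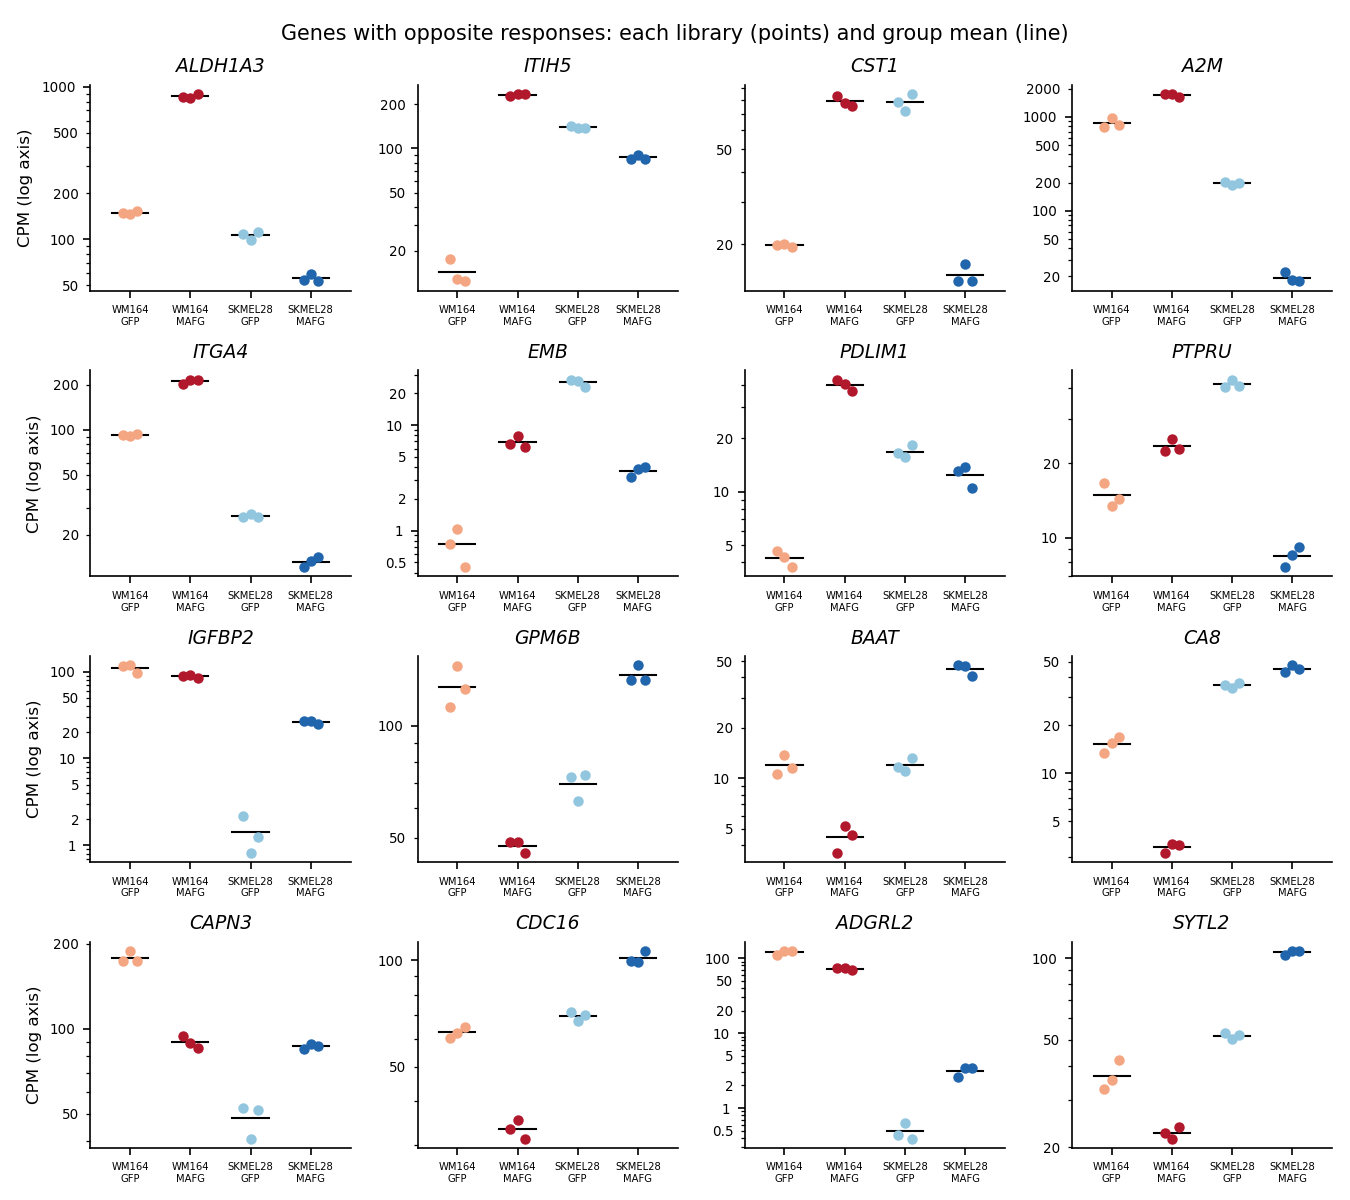
CPM of 16 genes with opposite responses in each of the 12 libraries (points, logarithmic axes) with the mean of each group of 3 (line). The upper 8 panels show genes that rose in WM164 and fell in SKMEL28, such as ALDH1A3, and the lower 8 show the reverse, such as IGFBP2; the MAFG and GFP points of a line do not overlap in any panel.

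The 89 genes that fell in WM164 and rose in SKMEL28 were led by IGFBP2 (chromosome 2, chr2:216632828-216664436), a secreted binding protein for insulin-like growth factors. IGFBP2 read 116, 118 and 96.9 CPM in the WM164 GFP libraries and 88.7, 92.1 and 84.4 CPM in the WM164 MAFG libraries, against 2.18, 0.821 and 1.24 CPM in the SKMEL28 GFP and 27.1, 27.2 and 25.02 CPM in the SKMEL28 MAFG libraries. The change was small in WM164 (-0.32 ± 0.10 on the log2 scale, adjusted p = 0.018) and large in SKMEL28 (4.16 ± 0.16), where the level remained below that of WM164. ADGRL2, the adhesion receptor latrophilin 2, had the same arrangement, with 111, 124 and 124 CPM in WM164 GFP, 73.5, 74.0 and 68.8 in WM164 MAFG, 0.443, 0.638 and 0.391 in SKMEL28 GFP and 2.62, 3.43 and 3.40 in SKMEL28 MAFG.

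Among the others named in this class, BAAT and CDC16 parted from GFP levels that lay close together in the lines. BAAT (chromosome 9, chr9:101354182-101385400), the enzyme that conjugates bile acids in liver, gave the clearest case. BAAT read 10.7, 13.9 and 11.6 CPM in the WM164 GFP libraries and 3.61, 5.24 and 4.62 CPM in the WM164 MAFG libraries, against 11.7, 11.1 and 13.2 CPM in the SKMEL28 GFP and 47.2, 47.0 and 40.7 CPM in the SKMEL28 MAFG libraries. The GFP libraries of both lines overlapped, with a log2 difference between the lines of 0.00 ± 0.12, while the response was -1.43 ± 0.14 in WM164 and 1.90 ± 0.12 in SKMEL28. CDC16, a subunit of the anaphase-promoting complex on chromosome 13, went from 60.4, 62.4 and 64.8 to 33.2, 35.3 and 31.3 CPM in WM164 and from 71.5, 67.2 and 70.0 to 99.3, 99.2 and 106 CPM in SKMEL28.

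CAPN3, SYTL2 and GPM6B are genes expressed in pigment cells. CAPN3, a calcium-activated protease, fell from 174, 189 and 174 to 94.4, 89.0 and 85.4 CPM in WM164 and rose from 52.3, 40.9 and 51.7 to 85.1, 88.1 and 87.2 CPM in SKMEL28, which brought both lines to the same range. SYTL2, which links RAB27A to membranes in granule transport, fell by 0.70 on the log2 scale in WM164 and rose by 1.02 in SKMEL28. GPM6B, a membrane protein of the proteolipid family on the X chromosome, fell by 1.42 and rose by 0.97. CAPN3 overlaps ZNF106 and GPM6B overlaps OFD1 on the opposite strand, and since it is not stated whether counting used strand, reads of these pairs cannot be told apart. CA8, a carbonic anhydrase relative without enzyme activity, went from 15.3 ± 1.67 to 3.44 ± 0.233 CPM (SD, n = 3) in WM164 and from 35.5 ± 1.23 to 45.2 ± 2.14 CPM in SKMEL28.

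The promoters of the class genes were searched on both strands for CATGTG, an E-box that MITF is known to bind, for the palindromic E-box CACGTG, for TGANTCA, the site of AP-1 factors, and for TGCTGA, the half-site of MAF proteins. RefSeq promoter sequences, 250 bases before to 50 after each start (GRCh38.p14), matched 8436 of the genes tested. CATGTG was in 6.85% of them, in 10 of the 41 matched genes that fell in WM164 and rose in SKMEL28 (24.4%), in 3 of the 81 of the reverse class (3.70%), in 15 of 101 of those that rose in WM164 only (14.9%) and in 3 of 36 of those that fell in WM164 only (8.33%). TGCTGA was in 12.4% of all matched promoters, in 17 of 81 (21.0%) of the genes that rose in WM164 and fell in SKMEL28 in 4 of 41 (9.76%) of the reverse class, and in 19.8% and 19.4% of those that rose and fell in WM164 only. TGANTCA was in 4.27% of all, in 6.17% and 4.88% of the opposite classes and in 1.75% of those that fell in SKMEL28 only, and its highest share was in genes that moved in the same direction by unequal amounts (8 of 46, 17.4%). CACGTG was in 10.3% of all and in 7.41% and 9.76% of the opposite classes. These are shares of letters in a window and were not tested.

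The promoters with CATGTG (or its reverse complement CACATG) of the 3 genes with the smallest p among those 10, and that of GPR143, a melanosome receptor gene described with the genes that fell in WM164 only, are shown 5′ to 3′ with the matches to the searched motifs in capitals; ALDH1A3 is given as the leading gene of the reverse class, in which none of these motifs was found.
MGAM2 (chr7:142111468-142111767, plus strand): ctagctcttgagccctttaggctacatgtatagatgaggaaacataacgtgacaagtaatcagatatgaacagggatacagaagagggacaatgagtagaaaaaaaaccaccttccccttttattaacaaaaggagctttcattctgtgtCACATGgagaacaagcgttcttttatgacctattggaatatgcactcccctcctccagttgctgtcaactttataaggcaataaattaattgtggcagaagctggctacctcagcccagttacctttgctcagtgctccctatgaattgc
MMP8 (chr11:102724905-102725204, minus strand): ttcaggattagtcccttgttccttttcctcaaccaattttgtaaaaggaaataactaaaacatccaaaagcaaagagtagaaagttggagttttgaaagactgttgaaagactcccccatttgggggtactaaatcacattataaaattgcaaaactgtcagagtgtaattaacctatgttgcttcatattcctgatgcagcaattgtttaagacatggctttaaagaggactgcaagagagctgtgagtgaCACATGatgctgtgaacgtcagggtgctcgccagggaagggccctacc
SULT1C2 (chr2:108288645-108288944, plus strand): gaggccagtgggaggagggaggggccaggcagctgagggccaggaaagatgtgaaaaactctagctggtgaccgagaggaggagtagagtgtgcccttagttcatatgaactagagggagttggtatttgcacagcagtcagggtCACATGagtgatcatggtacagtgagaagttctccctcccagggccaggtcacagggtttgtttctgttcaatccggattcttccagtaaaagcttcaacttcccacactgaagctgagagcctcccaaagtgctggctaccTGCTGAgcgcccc
GPR143 (chrX:9765798-9766097, minus strand): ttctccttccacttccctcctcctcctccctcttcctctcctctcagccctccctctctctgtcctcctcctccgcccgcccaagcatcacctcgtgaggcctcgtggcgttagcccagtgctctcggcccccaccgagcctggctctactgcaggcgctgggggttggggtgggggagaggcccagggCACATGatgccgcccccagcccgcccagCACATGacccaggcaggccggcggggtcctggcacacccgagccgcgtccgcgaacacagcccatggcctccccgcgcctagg
ALDH1A3 (chr15:100879581-100879880, plus strand): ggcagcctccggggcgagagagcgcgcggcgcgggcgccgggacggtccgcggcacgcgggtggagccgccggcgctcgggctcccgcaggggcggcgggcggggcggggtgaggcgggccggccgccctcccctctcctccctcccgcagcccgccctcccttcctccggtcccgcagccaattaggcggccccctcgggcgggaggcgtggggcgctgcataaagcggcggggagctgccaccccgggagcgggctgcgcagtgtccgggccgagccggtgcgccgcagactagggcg

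MGAM2, a relative of intestinal maltase, had group means of 24.3 and 7.52 CPM in WM164 GFP and MAFG and of 13.9 and 26.4 CPM in SKMEL28. MMP8, a neutrophil-type collagenase, had 38.1 and 20.04 CPM in WM164 and 55.5 and 75.3 CPM in SKMEL28. SULT1C2, a sulfotransferase, fell from 71.0 to 32.1 CPM in WM164 and rose from 3.36 to 5.47 CPM in SKMEL28. MGAM2 and SULT1C2 were chosen for their promoters after the values were seen. GPR143 does not stand for the genes that fell in WM164 only, of whose matched promoters 3 of 36 (8.33%) held CATGTG, against 6.85% of all.

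Of the 5 genes named for falling in WM164 only, 4 belong to the pigment programme. MLANA (chromosome 9, chr9:5890889-5910606), which encodes the melanosome protein MART-1, read 309.9, 328 and 314 CPM in WM164 GFP and 59.7, 61.6 and 58.2 CPM in WM164 MAFG, a log2 fold change of -2.41 ± 0.07. In SKMEL28 it read 496, 426 and 518 CPM with GFP and 485, 506 and 505 CPM with MAFG, and these overlapped (0.05 ± 0.06, 95% interval -0.07 to 0.18). By qRT-PCR, a different measure, the study reported MLANA repressed by MAFG in both lines. DCT, dopachrome tautomerase of melanin synthesis, fell from 1239.8, 1433 and 1327 to 454, 440.5 and 386 CPM in WM164 and read 653, 658 and 650.2 and then 617, 662 and 613 CPM in SKMEL28, where the groups also overlapped.

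GPR143, the ocular albinism receptor of the melanosome, fell from 40.3, 43.6 and 41.1 to 11.1, 11.5 and 9.84 CPM in WM164, against 88.7, 80.9 and 79.5 and 83.6, 82.4 and 78.0 CPM in SKMEL28 GFP and MAFG. TRPM1, an ion channel of melanocytes, fell by 2.01 on the log2 scale in WM164 and had -0.06 ± 0.08 in SKMEL28. TDRD3, which binds methylated arginine and is no pigment gene, fell by 1.62 in WM164 and had 0.07 ± 0.06 in SKMEL28. All 5 genes had 95% intervals within 2-fold in SKMEL28. MLANA overlaps KIAA2026 and GPR143 overlaps TBL1X on the opposite strand.

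TYR and PMEL fell in both lines, but by different amounts. TYR, tyrosinase, fell by 1.56 in WM164 and by 0.22 in SKMEL28 on the log2 scale (difference -1.34 ± 0.11, adjusted p = 1.5e-08). PMEL, the fibril protein of the melanosome, fell by 1.46 and 0.64, and its difference of -0.81 ± 0.11 did not pass the fold limit. Its antisense neighbour is CDK2, which overlaps it and fell by 0.88 in WM164 and had -0.07 ± 0.06 in SKMEL28. Over the list of pigment and melanosome genes, 11 of 17 tested passed at an adjusted p of 0.05 for a more negative response in WM164, against 13.0% of all genes tested, and 0 for a more positive one, against 12.3%. The median difference of the list was -0.82 (WM164 -1.10, SKMEL28 -0.20), beside 0.01 over all genes.

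The 253 genes that rose in WM164 only included matrix receptors and signalling enzymes. SDC2, the proteoglycan syndecan 2, rose from 10.3, 11.8 and 12.1 to 81.7, 86.1 and 80.8 CPM in WM164, and read 26.0, 24.8 and 27.7 CPM in SKMEL28 GFP and 28.2, 28.4 and 23.2 CPM in SKMEL28 MAFG. UBASH3B, a phosphatase that acts on tyrosine kinases, rose from 65.5, 54.2 and 54.0 to 263, 259 and 270.0 CPM in WM164 and had 0.16 ± 0.07 in SKMEL28. CDK14, a cyclin-dependent kinase, had 0 to 3 counts in each WM164 GFP library and 10.9, 13.02 and 14.9 CPM in WM164 MAFG, which is at least 115-fold higher against a floor of 3 counts in 1 library, and its SKMEL28 libraries read 13.3, 12.8 and 11.6 CPM with GFP and 15.9, 14.6 and 15.5 CPM with MAFG.

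RNF128, a ubiquitin ligase, went from 0.988, 1.01 and 1.05 to 13.3, 15.2 and 14.9 CPM in WM164 and was at 39.4, 37.1 and 42.2 CPM in SKMEL28 GFP, so that WM164 MAFG remained below SKMEL28. SLC20A1, a phosphate transporter, rose from 146, 133 and 140.1 to 363, 373 and 374 CPM in WM164 and read 329, 323 and 310.0 and 300.2, 288 and 312 CPM in SKMEL28 GFP and MAFG. NRCAM, an adhesion gene of the immunoglobulin family, rose by 1.96 in WM164 and had -0.07 ± 0.06 in SKMEL28, and ITGA9 rose by 2.42 and had 0.19 ± 0.10. EGFR went from 1.29 to 7.89 CPM in WM164 and from 1.08 to 1.07 CPM in SKMEL28.

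In SKMEL28 only, 83 genes rose. MATN2, the matrix protein matrilin 2, rose from 4.30, 3.24 and 3.62 to 37.1, 40.1 and 36.4 CPM in SKMEL28 and read 6.64, 6.75 and 5.68 and 6.68, 7.14 and 6.27 CPM in WM164 GFP and MAFG. CYB5R2, a cytochrome b5 reductase, rose from 2.18, 2.23 and 2.74 to 33.1, 34.4 and 34.8 CPM, whereas WM164 stayed between 1.37 and 2.11 CPM. For both genes every SKMEL28 MAFG library lay above every other library of both lines.

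TIMP3, an inhibitor of matrix metalloproteases, rose from 672, 632 and 647 to 1391, 1433 and 1523 CPM in SKMEL28 and had 0.06 ± 0.05 on the log2 scale in WM164. FXYD3, a regulator of the sodium pump, rose by 1.72 in SKMEL28 from a level far below that of WM164 (8.76, 5.33 and 7.11 against 398, 422 and 412 CPM in the GFP cells). SLCO4A1, an organic anion transporter, rose by 1.55 in SKMEL28 and had 0.14 ± 0.08 in WM164. MATN2, TIMP3 and SLCO4A1 overlap RPL30, SYN3 and SLCO4A1-AS1 on the opposite strand.

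The 206 genes that fell in SKMEL28 only included cytoskeletal genes. MAP9, a spindle microtubule protein, fell from 3.83, 3.37 and 3.91 to 0.542, 0.238 and 0.429 CPM in SKMEL28 and read 19.8, 22.9 and 24.8 and 25.1, 22.5 and 27.7 CPM in WM164 GFP and MAFG. CEMIP, which depolymerises hyaluronan, fell from 104, 104 and 103 to 24.0, 19.8 and 23.9 CPM in SKMEL28 and remained above WM164, which had at most 6.05 CPM. SEPT4, a septin, fell by 3.81 on the log2 scale, SHANK3, a scaffold of synapses, by 2.07 and STK26, a serine/threonine kinase, by 1.74. In WM164 these 3 genes had 0.26 ± 0.17, -0.02 ± 0.11 and 0.29 ± 0.12. CDH19, a cadherin of the Schwann cell lineage, fell by 1.43 in SKMEL28 and had 0.05 ± 0.09 in WM164.

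The GFP levels set against these classes show where each gene started. The GFP libraries enter both the level and the response, so the medians are given side by side and no relation between them was tested. Genes that rose in WM164 only had a median of 0.493 CPM in WM164 GFP and 2.98 in WM164 MAFG, with 1.10 and 0.953 CPM in SKMEL28, and 120 of the 253 had under 1 CPM in SKMEL28 GFP. At most 3 counts in all 6 SKMEL28 libraries were found for 20 of the 253, so a response there was not detectable at this depth. Genes that fell in WM164 only had 3.83 and 1.14 CPM in WM164 and 5.48 and 4.79 CPM in SKMEL28.

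Genes that rose in SKMEL28 only had a median of 0.387 CPM in SKMEL28 GFP and 2.26 with MAFG, against 3.47 and 3.70 CPM in WM164. Genes that fell in SKMEL28 only had 1.66 and 0.423 CPM there, against 2.84 and 2.85 CPM in WM164, and 5 of the 206 were at the floor in all 6 WM164 libraries. The 2 opposite classes started at similar medians, with 6.68 and 7.97 CPM in WM164 and SKMEL28 GFP for the genes that rose in WM164, and 14.1 and 12.5 CPM for those that fell. Over all genes tested the medians were 10.6 and 10.1 CPM. The classes called in 1 line thus had lower medians than all genes, and the opposite classes were closer to them. The definitions themselves favour this order. A gene of low level misses the test more easily, and a gene of an opposite class had to pass it in both lines.

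**Figure D3:**
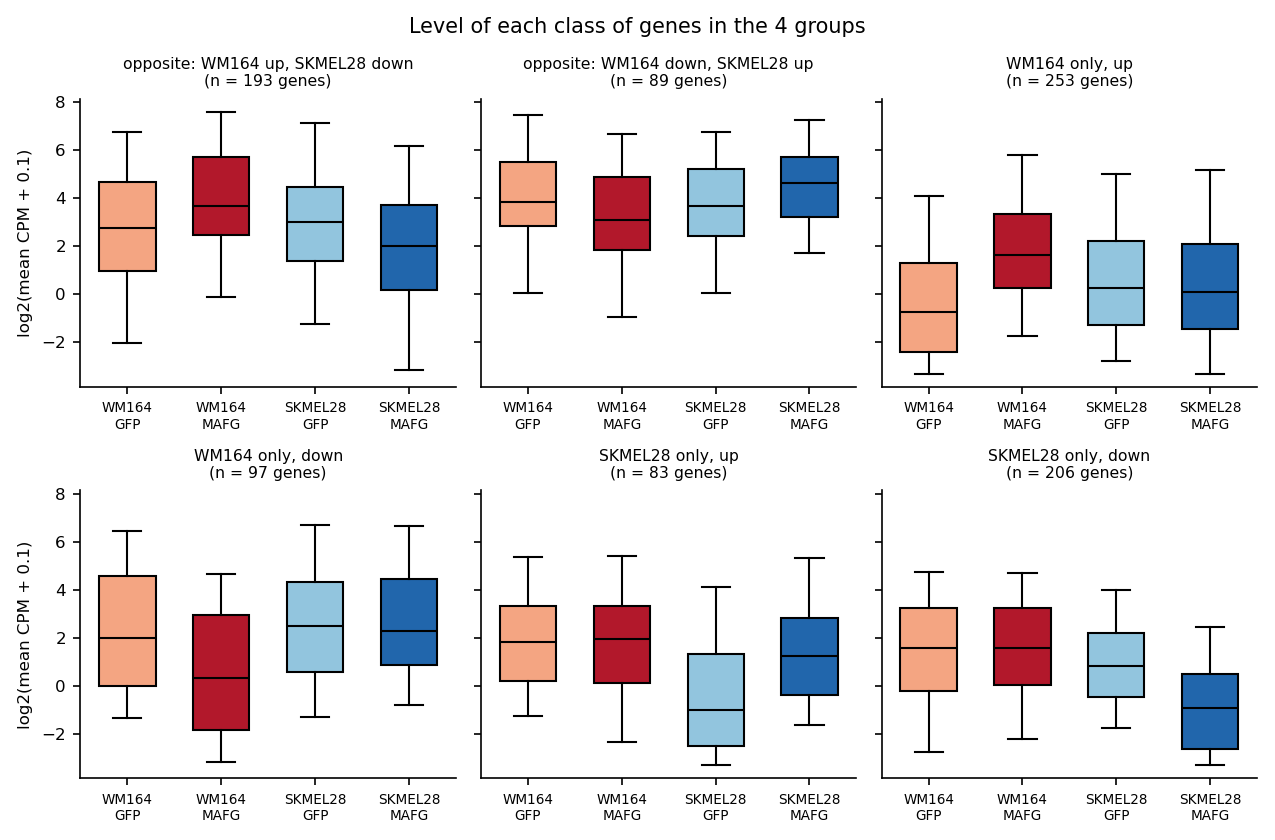
Level of the genes of 6 classes in the 4 groups, as log2 of the mean CPM plus 0.1 (boxes are quartiles, the line is the median and whiskers reach the 5th and 95th percentiles of genes). In the classes called in 1 line the 2 boxes of the other line lie level, which the definition of these classes favours. The 253 genes that rose in WM164 only start from a median of 0.493 CPM in WM164 GFP.

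Known functions were followed through gene lists, which were chosen with earlier results of these data known and were not tested as sets. Without a fold limit, 12.3% of all genes tested passed for a more positive response in WM164 and 13.0% for a more negative one. The list counts below are to be read beside these shares. Adhesion and matrix lists leaned to a more positive response in WM164. Of 27 integrin and laminin genes tested, 15 passed the test without a fold limit for a more positive response and 3 for a more negative one, with a median difference of 0.60 (WM164 0.37, SKMEL28 -0.28). ITGB5, a vitronectin receptor subunit, rose by 0.63 in WM164 and fell by 0.60 in SKMEL28, and ITGA1, a collagen receptor subunit, rose in both, by 2.78 and 0.67.

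Of 25 collagen chains, 13 passed for a more positive response and 1 for a more negative one (median difference 0.74). COL12A1, a fibril-associated collagen, rose in both lines, from 1.36, 1.71 and 1.28 to 61.0, 54.2 and 56.0 CPM in WM164 and from 6.42, 6.20 and 5.35 to 25.3, 21.4 and 28.0 CPM in SKMEL28, whereas COL6A2 rose by 1.07 in WM164 and fell by 0.88 in SKMEL28. Of 19 adhesion genes of the immunoglobulin family, 11 passed for a more positive and 2 for a more negative response (median 0.91). CADM1 rose by 2.69 in WM164 and 0.24 in SKMEL28, and NFASC rose by 1.74 and fell by 2.47.

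Signalling lists leaned the same way. Of 18 genes of MAPK feedback and output, 11 passed for a more positive and 3 for a more negative response, with medians of 0.29 in WM164 and -0.14 in SKMEL28. Beside EGR1, DUSP5, an ERK phosphatase, rose by 1.57 in WM164 and had -0.19 ± 0.11 in SKMEL28, and ETV1 rose by 0.66 and fell by 0.40. ETV4, an ETS factor on the same list, chosen for mention after its values were seen, passed in the reverse direction, with -0.40 in WM164 and 0.35 in SKMEL28.

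Of 11 AP-1 and large MAF genes, 6 passed for a more positive and 1 for a more negative response. FOSL1 rose by 0.69 and fell by 0.26, JUNB rose by 0.40 and fell by 0.46, and JUN rose in both lines by 1.12 and 0.29. Of 23 genes of the TGF-beta and BMP pathway, 12 passed for a more positive and 2 for a more negative response. BMP7 read 6.44, 6.47 and 5.31 CPM in WM164 GFP and 19.04, 20.4 and 20.3 CPM in WM164 MAFG, against 14.01, 14.5 and 16.8 and 14.6, 16.3 and 13.4 CPM in SKMEL28, and INHBA, an activin subunit, rose by 4.36 in WM164 and 1.92 in SKMEL28.

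In the Notch list 6 of 15 passed for a more positive response and 0 for a more negative one, with the ligand JAG1 falling by 1.18 in SKMEL28 and at -0.17 ± 0.08 in WM164. JAG1 lay at the fold limit and lost its call when any of 5 libraries was left out (0.95 to 0.99 without WM164 GFP replicate 1, WM164 MAFG replicate 1, WM164 MAFG replicate 2, SKMEL28 GFP replicate 3 or SKMEL28 MAFG replicate 1). In the WNT list 8 of 25 passed for a more positive response and 0 for a more negative one, and in the p53 target list 8 of 20 and 1. Of 22 hypoxia and glycolysis genes, 9 passed for a more positive and 1 for a more negative response.

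Among receptor tyrosine kinases 10 of 31 (32.3%) were more positive in WM164 and 5 (16.1%) more negative, against 12.3% and 13.0% of all genes. The share of more negative ones was thus near that of all genes. AXL, a receptor of the TAM family, rose in both lines, with the larger fold change in SKMEL28, from a lower GFP level. It read 4.19, 2.50 and 2.71 CPM in WM164 GFP, 26.0, 29.0 and 27.6 in WM164 MAFG, 0.601, 0.410 and 0.652 in SKMEL28 GFP and 21.2, 21.3 and 23.3 in SKMEL28 MAFG (difference of log2 fold changes -2.13 ± 0.27, adjusted p = 5.2e-06). Every WM164 MAFG library thus remained above every SKMEL28 MAFG library. Among the GFP cells AXL was higher in WM164, by 2.45 ± 0.23. The neural crest list was split, with 6 of 16 more positive and 7 more negative. ETS1, a transcription factor of that list, fell in WM164 by 0.90 and rose in SKMEL28 by 0.25.

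**Figure D4:**
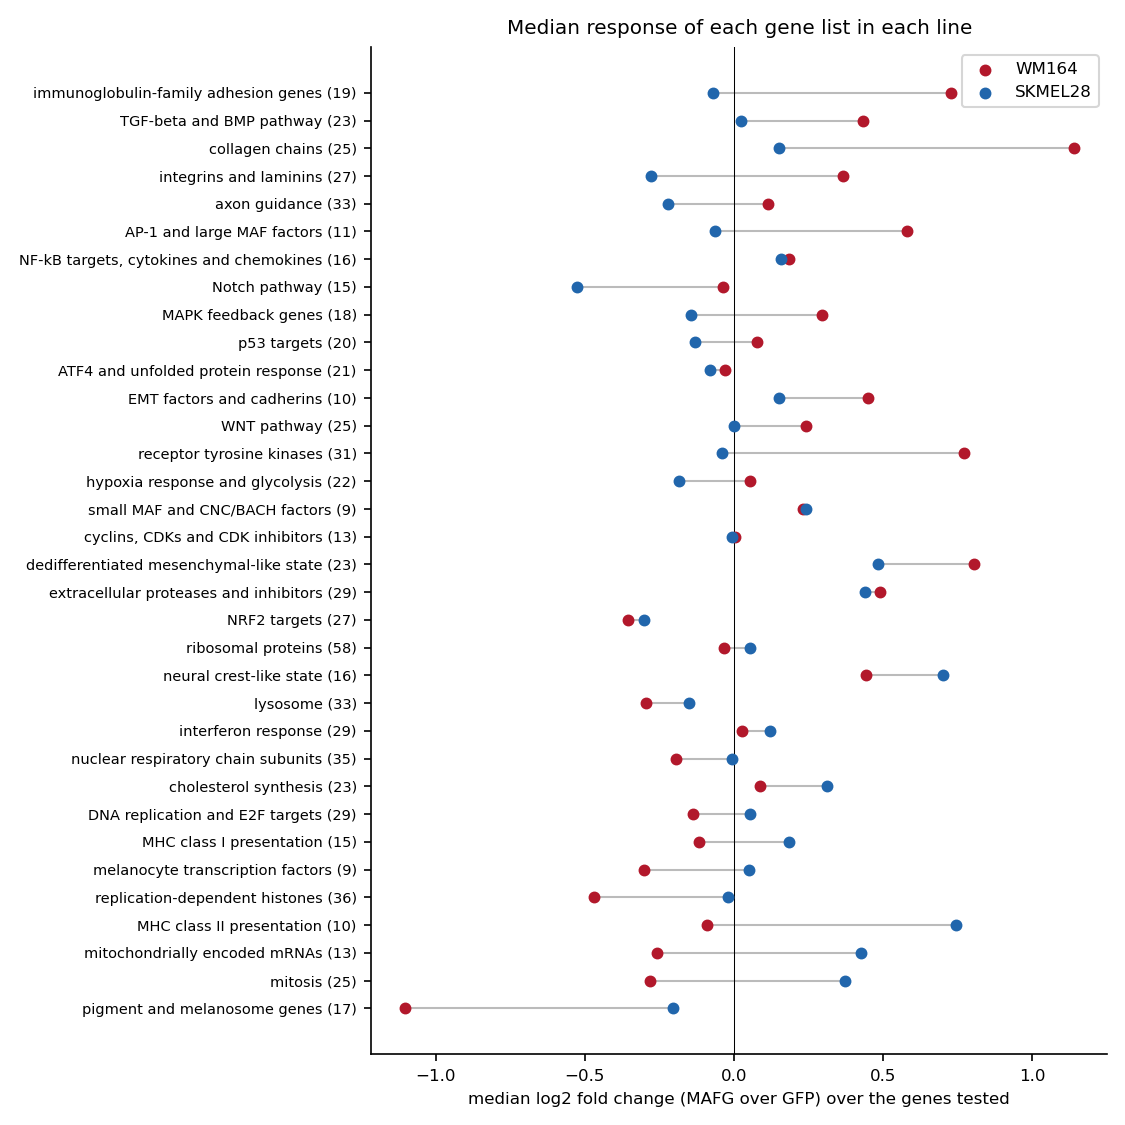
Median log2 fold change of MAFG over GFP in WM164 (red) and SKMEL28 (blue) for each list of genes, with the number of genes tested in brackets, ordered by the median response difference. The immunoglobulin-family adhesion genes (median difference 0.91) stand at the top and the pigment genes (-0.82) at the bottom, and the mitosis list lies on opposite sides of 0 in the lines.

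The mitosis list moved in opposite directions by small amounts. Of 25 genes, 24 passed without a fold limit for a more negative response in WM164 and 0 for a more positive one, but none passed the fold limit. In WM164, 18 fell and 0 rose, with a median of -0.28, and in SKMEL28, 19 rose and 0 fell, with a median of 0.37. At that threshold 13.6% of all genes tested rose and 13.1% fell in WM164, and 14.5% rose and 13.9% fell in SKMEL28. TPX2, a spindle assembly factor, read 170.0, 159 and 165 CPM in WM164 GFP and 132, 129 and 141 in WM164 MAFG, against 258, 223 and 252 and 371, 380.3 and 383 CPM in SKMEL28. MKI67, the proliferation marker Ki-67, had -0.24 ± 0.07 in WM164 and 0.57 ± 0.07 in SKMEL28 on the log2 scale. BUB1, a spindle checkpoint kinase, had -0.43 ± 0.06 and 0.37 ± 0.06. By growth assays of the cells, a different measure, the study reported more proliferation with MAFG in both lines.

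The list of DNA replication genes differed less, with 8 of 29 (27.6%) more negative in WM164, 0 more positive and a median of -0.19. Of 36 replication-dependent histone genes, 28 fell in WM164 and 5 in SKMEL28 (against 13.1% and 13.9% of all genes), and 14 had a more negative response in WM164 with 0 more positive. Many histone genes are near-identical copies, so the level of each is uncertain. Of 13 mitochondrially encoded mRNAs, 12 had a more negative response in WM164. MT-CYB had -0.26 ± 0.07 in WM164 and 0.55 ± 0.07 in SKMEL28, and the median of the list was -0.26 and 0.43. Of 35 nuclear genes of the respiratory chain, 12 (34.3%) had a more negative and 2 (5.71%) a more positive response, against 13.0% and 12.3% of all genes.

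The melanocyte transcription factors leaned towards a more negative response in WM164, with 6 of 9 passing in that direction and 1, LEF1, in the other. TFAP2A and IRF4 fell in WM164 by 0.69 and 0.75 and had 0.10 ± 0.05 and 0.11 ± 0.06 in SKMEL28, where neither passed the test. LEF1, a WNT effector, rose by 0.47 in WM164 and fell by 0.25 in SKMEL28. On the deposited TPM values the median response difference of all genes shifted to 0.28 (pseudocount 1) and 0.34 (pseudocount 0.1). Relative to that shift the medians of the pigment (-0.60 and -0.73) and mitosis lists (-0.51 and -0.59) kept their sign. So did those of the integrin (0.32 and 0.56), collagen (0.36 and 0.59) and melanocyte factor lists (-0.26 and -0.31). Without that correction the melanocyte factor median was 0.02 and 0.02. Other medians negative on counts were then positive too, among them DNA replication (0.20 and 0.21) and the nuclear respiratory chain (0.14 and 0.14). The same held for MHC class I (0.11 and 0.11), cholesterol synthesis (0.23 and 0.26), lysosome (0.26 and 0.26) and ribosomal protein genes (0.26 and 0.26). The pigment (-0.32 and -0.39) and mitosis medians (-0.23 and -0.25) stayed negative without it.

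Position on the chromosomes moved with the response in SKMEL28. Over genes with a mean of at least 5 CPM in the GFP libraries of both lines, the median response of the 314 X-linked genes was 0.38 in SKMEL28 and -0.06 in WM164, and 89.8% of them had a positive log2 fold change in SKMEL28. The medians of chromosomes 9 and 13 were 0.24 and 0.21 in SKMEL28, against -0.03 and -0.03 in WM164, while chromosomes 18 and 19 had -0.14 and -0.24 in SKMEL28. Over all 9644 such genes the medians were 0.02 in SKMEL28 and -0.03 in WM164.

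Each of the 3 SKMEL28 MAFG libraries showed this, with X-linked medians of 0.35 to 0.39 against -0.06 to 0.04 in the SKMEL28 GFP libraries, relative to the GFP mean. WM164 MAFG libraries stood apart at chromosome 11 (0.16 to 0.17), chromosome 14 (0.13 to 0.17) and chromosome 15 (-0.17 to -0.13). They did so too at chromosome 6 (-0.16 to -0.10) and chromosome 22 (-0.11 to -0.10), with smaller shifts elsewhere. Of the chromosome 6 genes tested, 19.4% had a more negative response in WM164 without a fold limit, against 13.0% of all genes. The GC content of transcripts differed between chromosomes and moved with the SKMEL28 response too: of 4 equal bins of genes by GC, the lowest had a median of 0.11 and the highest -0.13. From the lowest to the highest GC bin, the SKMEL28 medians were 0.43, 0.44, 0.35 and 0.22 for X-linked genes, 0.37, 0.30, 0.25 and 0.10 for chromosome 9, and -0.08, -0.09, -0.25 and -0.27 for chromosome 19.

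Of the X-linked genes tested, 34.7% had a more negative response in WM164 than in SKMEL28 without a fold limit, against 13.0% of all genes tested, and 5.78% passed the fold limit, against 2.27%. Examples on the X chromosome with this direction, not a full list, were GPM6B and GPR143, which fell in WM164. Another was EBP, an enzyme of cholesterol synthesis that rose by 1.13 in SKMEL28 and had -0.14 ± 0.11 in WM164. RNF128 and STK26 are X-linked with the reverse direction. With each chromosome's median taken off, an alternative chosen after seeing the data, 1193 genes were called, 1130 of them among the 1221, and the medians of the mitosis and pigment lists were -0.57 and -0.82. Other medians shrank: from -0.45 to -0.27 for melanocyte factors, from -0.47 to -0.28 for histones, from -0.22 to -0.03 for MHC class I genes and from -0.57 to -0.02 for the mitochondrial mRNAs, which are themselves the M chromosome.

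**Figure D5:**
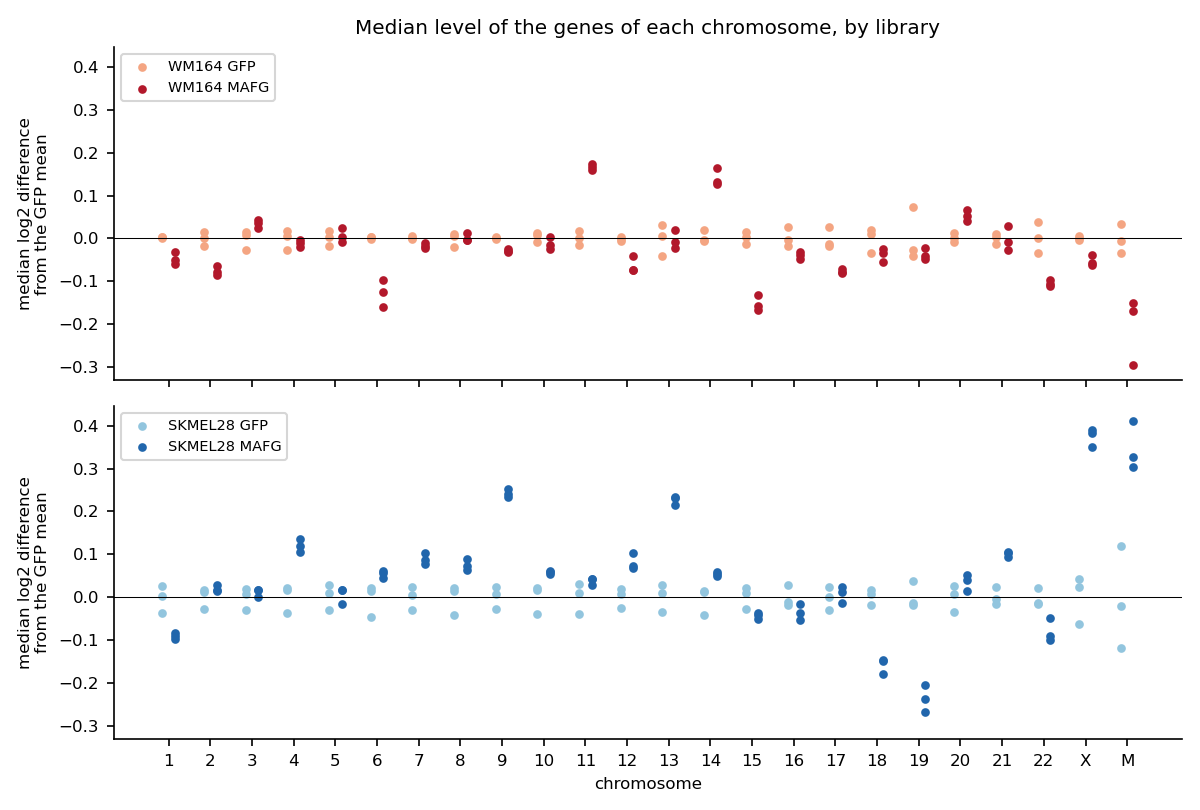
Median log2 level of the genes of each chromosome in each library, relative to the GFP mean of the same line (genes with at least 5 CPM in the GFP cells of both lines; M is the mitochondrial genome). The 3 SKMEL28 MAFG libraries lie together at 0.35 to 0.39 on chromosome X and at -0.27 to -0.21 on chromosome 19.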

How the data were processed

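RNA-seq of 12 libraries was analysed. The authors trimmed reads with cutadapt 1.8.1, aligned them to GRCh38 with STAR 2.7.7a and summarised unique alignments by gene in featureCounts; the submitters' processing notes also name RSEM 1.3.0 and DESeq2. The deposited counts are whole numbers for 58870 genes, not normalized, and the authors also deposited TPM values, which have the same sum in each library. The labels name a library kit without strand and the methods a strand-specific one, and the strand setting of counting is not given in the sources used here. All sample columns were assigned to a group and 0 were left unassigned. The columns of the 6 A375 libraries entered only the alternative fit of all 18 libraries.

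Counts were fitted in R 4.3.3 with edgeR 4.0.16 (filterByExpr, TMM, quasi-likelihood F test, 4 groups) with Benjamini-Hochberg adjustment over all 17338 genes. Calls needed a log2 value above 1 in size with the adjusted p at or under 0.05. The standard error is the absolute log2 value divided by the square root of F, with a median of 0.190 for the difference. CPM are counts scaled to library size with TMM, given in replicate order. In simulated data of this design, differences were planted only in genes with ample counts in both lines. Of these, 95 of 100 with a planted log2 difference of 1.5 and 99 of 100 with 2 were recovered. There was 1 false call among 16954 genes. Genes without a planted difference were simulated with equal means in the GFP and MAFG cells of a line. Shifts by chromosome or GC content were thus absent, and this count does not give the share of false calls in the real data. Recovery at the low levels of many genes called in 1 line was not tested.

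The rule named the protein-coding genes with the smallest p among those whose MAFG and GFP libraries did not overlap in the responding line (8 for each opposite class and 5 for each class called in 1 line), MAFG, MITF, MLANA, TYR, PMEL and AXL, and up to 4 genes with the smallest p in each of 35 lists. A few genes that this rule names are not reported here. The members and lists were chosen with earlier results of these data known. Alternatives were DESeq2 1.42.0, limma 3.58.1 on log2(TPM + 1) and log2(TPM + 0.1), other scaling and filters, all 18 libraries, a replicate block and the omission of each library. Positions are from GENCODE release 44. List symbols were matched by name or gene identifier, and 90 genes had no position. For replicate pairs, over genes whose counts summed to 20 or more, the mean chi-square per gene was 5.90 to 15.1 in 12 pairs, so none agreed within sampling noise.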

Additional observations from a re-analysis of the deposited data

Results flagged for a closer look

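The response differed between WM164 and SKMEL28, by the edgeR test of the difference itself, for each gene named by class. Values are differences of log2 fold changes, WM164 minus SKMEL28, with the standard error. In the class that rose in WM164 and fell in SKMEL28 they were 3.48 ± 0.08 for ALDH1A3, 4.70 ± 0.12 for ITIH5, 4.41 ± 0.11 for CST1, 4.34 ± 0.12 for A2M, 2.21 ± 0.09 for ITGA4, 5.96 ± 0.26 for EMB, 3.67 ± 0.16 for PDLIM1 and 2.96 ± 0.14 for PTPRU. In the reverse class they were -4.48 ± 0.19 for IGFBP2, -2.38 ± 0.11 for GPM6B, -3.33 ± 0.18 for BAAT, -2.49 ± 0.14 for CA8, -1.84 ± 0.10 for CAPN3, -1.46 ± 0.09 for CDC16, -3.44 ± 0.21 for ADGRL2 and -1.72 ± 0.11 for SYTL2.

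For the genes that rose in WM164 only, the differences were 2.84 ± 0.12 for SDC2, 3.73 ± 0.17 for RNF128, 7.74 ± 0.36 for CDK14 (a fitted value that depends on the prior count, since its WM164 GFP libraries were at the floor), 2.03 ± 0.10 for UBASH3B and 1.5 ± 0.07 for SLC20A1. For those that fell in WM164 only, they were -2.46 ± 0.09 for MLANA, -1.92 ± 0.10 for GPR143, -1.70 ± 0.09 for TDRD3, -1.59 ± 0.09 for DCT and -1.95 ± 0.13 for TRPM1. For those that rose in SKMEL28 only, they were -3.26 ± 0.17 for MATN2, -4.002 ± 0.23 for CYB5R2, -1.09 ± 0.08 for TIMP3, -1.89 ± 0.14 for FXYD3 and -1.41 ± 0.12 for SLCO4A1. For those that fell in SKMEL28 only, they were 3.35 ± 0.26 for MAP9, 2.42 ± 0.19 for CEMIP, 4.06 ± 0.34 for SEPT4, 2.05 ± 0.17 for SHANK3 and 2.03 ± 0.18 for STK26. The largest adjusted p among these 36 genes was 5.0e-08. They were named for the smallest p of this same test, so their small p-values follow from that choice.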

How the results depend on the processing

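Leaving out each library in turn gave 1103 to 1205 called genes against 1221, with 165 to 187 and 77 to 88 in the opposite classes. DESeq2 called 1349 genes, of which 1198 were among the 1221, and the fit of all 18 libraries called 957 (920 shared), with 57 in place of 89 genes that fell in WM164 and rose in SKMEL28. With a replicate block the counts were 1173 (number shared by all groups) and 1163 (number within each line), and same-numbered libraries did not deviate together (correlations of -0.04 to 0.05), so the number is not taken as a pairing. On TPM values, which tested 864 of the 1221 genes, limma called 777 (416 shared) with a pseudocount of 1 and 1192 (575 shared) with 0.1. Calls more negative in WM164 were then 81 and 129 in place of 393, genes that fell in WM164 and rose in SKMEL28 were 18 and 19, those that fell in WM164 only 27 and 45, those that rose in SKMEL28 only 17 and 30, those of the same direction 22 and 35, and those that fell in SKMEL28 only 100 with a pseudocount of 1; the cause was not tested beyond the shift of the median given above. Without a fold limit 4377 genes passed (2128 more positive and 2249 more negative), with 328 and 345 in the opposite classes, 748 and 706 in WM164 only (higher and lower), 860 and 737 in SKMEL28 only and 349 in the same direction. With a change above 2-fold required in both lines, the opposite classes held 50 and 8 genes, and with the other line's 95% interval required within 2-fold, the classes called in 1 line held 104, 62, 49 and 108. Among the 36 genes named by class, 753 of 756 alternative values stayed called. TIMP3 (-0.72 with both pseudocounts) and SHANK3 (0.76) were the exceptions on TPM. These genes had been named for the smallest p of the main fit, so this count does not describe the other called genes. The sign reversed on TPM values for ZEB2 (0.022 and 0.021 with pseudocounts of 1 and 0.1, against -0.39), RRM1 (0.026 and 0.034, against -0.31) and HLA-DQB1 (0.075 with a pseudocount of 1, against -1.61), and, without SKMEL28 GFP replicate 3, for VWF (-0.42 with all libraries, -0.83 to 0.11 over the omissions), which was not called. JAG1, SEMA6A, NQO1, ZEB1, FZD7, IFIH1, HLA-DPA1, HLA-DPB1 and HLA-DQB1 lost their call without at least 1 library.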

Other observations

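Genes of antigen presentation and of interferon signalling have not been described above. Of 10 tested genes of MHC class II presentation, 3 had a called difference, all more negative in WM164 (2.27% of all genes), and 7 rose in SKMEL28 while 0 fell there (14.5% and 13.9% of all genes). Each of the 3 missed the threshold once a certain library was left out: HLA-DPA1 without WM164 GFP replicate 3 (-1.13), HLA-DPB1 without WM164 GFP replicate 1 (-2.18) and HLA-DQB1 without any 1 of 11 libraries (-1.80 to -1.29). HLA-DRA, a class II chain chosen for mention after its values were seen, rose from 32.3 to 74.1 CPM in SKMEL28 and had at most 3 counts in every WM164 GFP library, and HLA-DPA1 read 49.1, 36.7 and 40.4 CPM in SKMEL28 GFP, 60.2, 57.3 and 59.9 in SKMEL28 MAFG and under 1 CPM in all WM164 libraries. Of 15 class I genes, 4 had a more negative and 2 a more positive response in WM164 (against 13.0% and 12.3% of all genes), with HLA-C higher by 0.46 in WM164 and at 0.06 ± 0.06 in SKMEL28. Of 29 interferon response genes, 3 had a more positive and 6 a more negative response (10.3% and 20.7%), against 12.3% and 13.0% of all genes, and the list median changed sign with the library left out (-0.52 without SKMEL28 MAFG replicate 2 and 0.23 without SKMEL28 MAFG replicate 3).

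Of 27 tested targets of NRF2, a partner of MAFG, 14 fell and 2 rose in WM164, and 14 fell and 2 rose in SKMEL28. Of all genes tested, 13.1% fell and 13.6% rose in WM164, and 13.9% fell and 14.5% rose in SKMEL28. NQO1 went from 228, 243 and 241 to 176, 177 and 172 CPM in WM164 and from 409.8, 391 and 424 to 146, 161 and 137 CPM in SKMEL28, and SLC7A11, the cystine transporter, fell by 0.62 and 1.97. FTH1, the ferritin heavy chain, also chosen after its values were seen, fell more in WM164 (-0.91 ± 0.08) than in SKMEL28 (-0.22 ± 0.07), with a difference of -0.69 ± 0.11. Of 9 small MAF and CNC/BACH genes, 1 passed for a more positive response in WM164 and 1 for a more negative one. These shares (11.1% each) were near those of all genes (12.3% and 13.0%), and the list median was 0.06. The first was BACH1, a repressor that pairs with MAFG, which rose by 0.32 in WM164 and fell by 0.25 in SKMEL28 (difference 0.57 ± 0.12, adjusted p = 9.7e-04). The second was NFE2L3, which had -0.01 ± 0.09 in WM164 and rose by 0.81 in SKMEL28.

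Values for the other lists are medians of the response difference. They were 0.22 for receptor tyrosine kinases, 0.57 for axon guidance, 0.47 for NF-kB targets and cytokines, 0.30 for ATF4 and unfolded protein response genes, 0.26 for EMT factors and cadherins, 0.03 for cyclins and CDK genes, 0.02 for genes of the dedifferentiated state, -0.19 for cholesterol synthesis, -0.17 for lysosome genes, -0.11 for ribosomal proteins and 0.00 for extracellular proteases and inhibitors, beside 0.01 over all genes. The axon guidance median was 0.01 without SKMEL28 GFP replicate 2 and 0.32 without SKMEL28 GFP replicate 1, and on TPM values relative to the shift of all genes 0.02 and -0.05. The EMT median was 0.02 with a mean of at least 10 counts required and 0.04 with all 18 libraries. With genes at the floor set to their bound, the medians of the axon guidance, neural crest and MHC class II lists were 0.45, -0.23 and -1.17, against 0.57, -0.11 and -0.51 as fitted. Of the 58 ribosomal protein genes, 9 (15.5%) had a more positive response in WM164, led by RPL13A and RPL18 of chromosome 19. A more negative one was seen for 15 (25.9%), led by RPS6 and RPL35 of chromosome 9. Over all genes these shares were 12.3% and 13.0%.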
